A study of Mus musculus with 98 samples.

Results

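The smooth muscle contractile genes are 10 genes whose products build or brace the contractile apparatus of vessel walls: Acta2, Actg2, Myh11, Myl9, Myl6, Tpm1, Tpm2, Tagln, Cnn1 and Des. They were taken by name, with earlier results of these data known, and all 10 were found among the 22231 genes of the age series single-cell counts, the 20760 genes of the newborn single-cell counts and the 39179 genes of the bulk counts. The thymic stroma was measured in 98 samples from 3 experiments. In the age series, live Ter119-CD45-EpCAM- cells, termed nonepithelial thymic stroma (NETS), of WT C57BL/6 mice were captured at E12.5 and E13.5 (1 library each) and at E16.5, P0 and 4 weeks (2 libraries each), giving 36208 cells with deposited subtype labels. In the newborn experiment, live Ter119-CD45- cells, which also hold thymic epithelium, were sorted at P0 from 3 mice labelled Tbx1+/-Crkl+/- and 3 WT littermates and fixed in RNAprotect Cell Reagent before capture, giving 21451 cells. The Tbx1+/-Crkl+/- mice carry 1 Tbx1 LacZ allele and 1 Crkl null allele in the germline, so that every cell has them, and are used as a model of the 22q11.2 deletion syndrome. In the bulk experiment, CD45- populations were sorted from WT mice aged P0 or 4 weeks and their RNA sequenced, with 6 libraries per population and age. Of these, Ly51+gp38- cells (which hold the mural cells), CD31+ endothelial cells and gp38+CD26+ and gp38+CD26- fibroblasts were compared.

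Contraction of a vessel wall rests on sliding of smooth muscle myosin along actin filaments, switched on when calcium-activated myosin light chain kinase phosphorylates the regulatory light chain. Many of the genes of this apparatus are driven by serum response factor with its coactivator myocardin through a short DNA element named the CArG box. Vascular smooth muscle cells (VSM) surround arteries and arterioles, and pericytes (Pc) sit on capillaries, and both are known to arise from neural crest in the thymus. Acta2 and Actg2 encode the smooth muscle alpha and gamma actins, Myh11 the smooth muscle myosin heavy chain, Myl9 the regulatory and Myl6 the essential light chain, Tpm1 and Tpm2 tropomyosins that lie along the actin filament, Tagln (SM22) and Cnn1 (calponin) actin-binding proteins, and Des the intermediate filament protein desmin.

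Each library held 28583048 to 93040640 UMIs in the age series and 4978011 to 31418527 in the newborn experiment, and 47 of the 48 bulk libraries of the 4 populations held 6793831 to 15852166 gene counts. The remaining bulk library, gp38+CD26+ at 4 weeks, held 25702 and was left out. Cell barcodes found in more than 1 library made up 0.430% in the age series and 0.206% in the newborn experiment. Tbx1 stood at 0, 0 and 0.872 counts per 1000000 counts (CPM) in the libraries labelled Tbx1+/-Crkl+/- (0, 0 and 8 UMIs) against 1.79, 0.441 and 0.605 CPM in WT (13, 6 and 19 UMIs). The library labelled Tbx1+/-Crkl+/- replicate 3 thus lay above 2 of the 3 WT libraries. Crkl was at 24.1, 23.6 and 26.9 CPM against 23.0, 25.1 and 18.4 CPM and was not lower, so these counts do not check the labels. The study named VSM from Acta2, Tpm1 and Myh11 among other genes, and all subtypes were clustered on the same cells, so levels over subtypes are given as a description without a test. The label was set beside 7 other VSM genes (Nrip2, Olfr78, Sncg, Ntf3, Map3k7cl, Lmod1 and Kcnmb1), whose summed level at 4 weeks was 2565 to 2624 CPM in VSM and 165.5 to 189 CPM in Pc. The labels rest on the same transcripts, and Nrip2 is a top gene of the study's VSM cluster, so this is no independent check. The 7 pericyte markers summed to 14150 to 15632 CPM in VSM and 12880 to 13071 CPM in Pc, so they did not set the mural subtypes apart.

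Sequence upstream of the transcription start, from RefSeq on GRCm38.p6, was at hand for 7 of the members, namely Acta2, Myl9, Myl6, Tpm1, Tpm2, Cnn1 and Des. In these windows of 250 bases the CArG box was searched on both strands, as the exact letters CCWWWWWWGG with W either A or T. Near matches were not counted, among them ccctatatgg and ccttgtttgg in the Acta2 window, each with 1 letter off. It was found in 2 of the 8 windows of these members, against 482 of all 32851 windows (1.47%). The Myl9 box lies in chr2:156775214-156775463 on the + strand, and the Myl6 box begins 50 bases before the start in 1 of its 2 windows, chr10:128493010-128493259 on the - strand. That window lies inside the annotated gene, chr10:128490860-128494145. The other Myl6 window, chr10:128493887-128494136 at the 5′ end of the gene, holds no box. The windows of Cnn1 (chr9:22099003-22099252, + strand) and Des (chr1:75360042-75360291, + strand) hold none. In single cells these members changed in opposite directions from P0 to 4 weeks in both mural subtypes (given later). The fall of Cnn1 lost its call without either 4-week library. Actg2, which also fell in both subtypes, had no window. In bulk Ly51+gp38- cells both Cnn1 and Des were higher at 4 weeks. The Cnn1 and Des windows and the 2 with a box are shown 5′ to 3′, with the box in capitals. Such a match describes letters in the window and not a site in use.
Myl9: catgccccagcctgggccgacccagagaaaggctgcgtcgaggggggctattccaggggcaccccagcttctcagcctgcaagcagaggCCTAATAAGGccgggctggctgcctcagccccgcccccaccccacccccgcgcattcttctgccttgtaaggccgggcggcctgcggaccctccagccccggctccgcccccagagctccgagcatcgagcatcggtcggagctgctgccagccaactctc
Myl6: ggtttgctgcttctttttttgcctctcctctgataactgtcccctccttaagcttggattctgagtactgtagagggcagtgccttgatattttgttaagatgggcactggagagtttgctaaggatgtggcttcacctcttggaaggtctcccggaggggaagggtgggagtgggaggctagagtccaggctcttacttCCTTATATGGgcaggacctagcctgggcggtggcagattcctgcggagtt
Cnn1: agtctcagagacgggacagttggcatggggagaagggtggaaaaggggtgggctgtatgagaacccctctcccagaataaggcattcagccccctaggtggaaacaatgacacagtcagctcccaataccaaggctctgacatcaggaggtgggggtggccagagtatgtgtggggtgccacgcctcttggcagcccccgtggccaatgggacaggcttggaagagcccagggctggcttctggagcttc
Des: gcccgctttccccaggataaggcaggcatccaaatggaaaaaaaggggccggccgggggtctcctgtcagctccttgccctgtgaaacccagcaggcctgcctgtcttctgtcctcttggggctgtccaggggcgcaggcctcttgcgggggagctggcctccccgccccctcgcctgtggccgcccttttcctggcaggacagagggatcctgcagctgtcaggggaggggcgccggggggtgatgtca

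Over the subtypes at 4 weeks, VSM had the highest mean level of all 10 members among 18 subtypes, with levels given as CPM of the UMIs summed over a subtype's cells in each library. Acta2 was at 9064 ± 1123 CPM in VSM (SD, n = 2) and 1164 ± 141 CPM in Pc, a ratio of 7.79. Myh11 was at 2322 ± 71.7 CPM in VSM and 216 ± 44.7 CPM in Pc, with arterial endothelial cells (EnA) next at 195 ± 77.1 CPM. Cnn1 had the largest ratio between the mural subtypes, 12.8, at 58.7 ± 14.9 CPM in VSM and 4.59 ± 1.88 CPM in Pc. Cnn1, Myh11 (ratio 10.8) and Acta2 thus separated VSM from Pc most, and the ratios of Tagln (5.71), Tpm1 (3.81) and Tpm2 (3.78) lay between those of Acta2 and the light chains. Myl6 (ratio 3.14) and Myl9 (2.05) were shared more evenly, and for Myl6 mesothelial cells (Mes) at 1753 ± 133.6 CPM stood above Pc at 1472 ± 97.0 CPM. Actg2 at 4 weeks did not separate the mural subtypes, with 8.50 and 26.3 CPM in the 2 VSM libraries and 22.4 and 11.9 CPM in the 2 Pc libraries.

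Des was also high outside VSM. At 4 weeks it reached 1583 ± 107.7 CPM in VSM, 1291 ± 18.5 CPM in Pc, 1143 ± 13.8 CPM in the medullary fibroblasts MedFb2a and 951 ± 41.8 CPM in MedFb1a. At P0 MedFb2a was first with 891 CPM against 814 CPM in VSM, and at E12.5 and E13.5 Mes was first with 106 and 183 CPM against 8.31 and 15.4 CPM in VSM. The ranks of Mes rest on 1 library each, and at E12.5 on 36 Des UMIs in 20 Mes cells and 10 UMIs in VSM. VSM came first for 9 of the members at E12.5, 7 at E13.5, 9 at E16.5 and 9 at P0. At E13.5 Pc stood above VSM for Actg2 (243 against 179.2 CPM) and Tpm1 (1960 against 1792 CPM), in 1 library each.

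**Figure D1:**
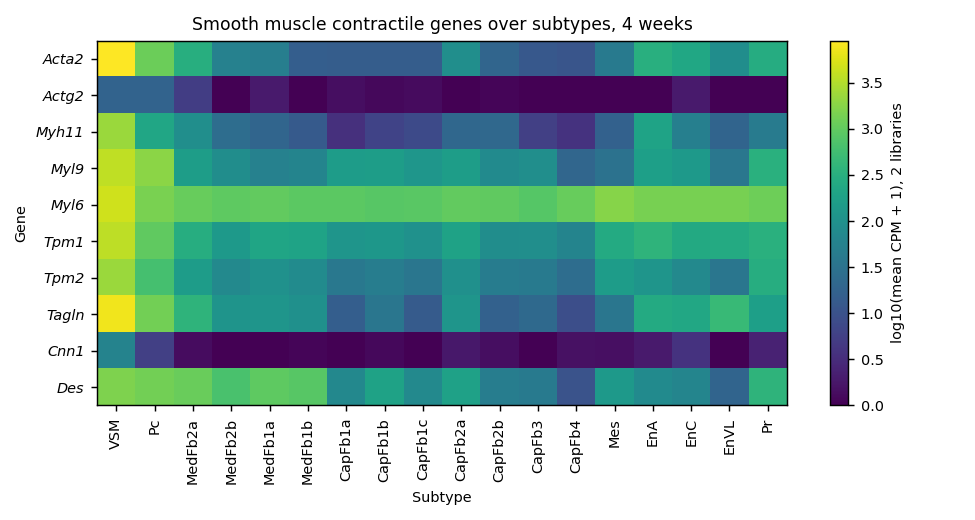
Levels of the 10 genes (rows) over the 18 NETS subtypes (columns) at 4 weeks, colored by log10(mean CPM + 1) over 2 libraries. The VSM column is the brightest in all 10 rows, and the Des row is also bright in Pc and in the medullary fibroblasts.

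Detection in single cells followed the levels. At 4 weeks an Acta2 UMI was found in 95.4% of 631 VSM cells (95% Wilson interval 93.5 to 96.8%), 37.4% of 776 Pc cells and 17.3% of 521 capillary endothelial cells (EnC), which should lack the gene, at median depths of 6365, 5029.5 and 5370 UMIs. After each cell was thinned to 2000 UMIs the shares were 91.7% of 626, 28.3% of 769 and 8.84% of 498 cells. For Myh11 the thinned shares were 89.3% in VSM, 24.6% in Pc and 2.01% in EnC (97.0%, 40.6% and 3.45% before thinning). Cnn1 was rare even in VSM, with 4.79% after and 8.56% before thinning, and 0.520% and 1.42% in Pc. The Actg2 shares at 4 weeks were 1.60% in VSM and 1.82% in Pc after thinning, where the E16.5 VSM cells had 28.5% and the P0 VSM cells 23.4%. Desmin transcripts marked nearly every mural cell at 4 weeks, 91.7% of VSM and 84.9% of Pc after thinning against 5.82% of EnC. The intervals cover counting error only.

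Genes outside the list with the most similar pattern were ranked by Pearson correlation over 19 subtypes, among 5751 genes that reach 50 CPM in a subtype. Each gene's log2 level was correlated with 1 profile, the mean of the members after each was scaled over the subtypes. These are descriptions over subtypes that share libraries and were clustered on the same cells. The first 8 were Mprip (r = 0.964), Hrc (0.954), Flna (0.940), Lmod1 (0.932), Ephx3 (0.930), Cald1 (0.930), Gm13861 (0.928) and Pdcd5 (0.914), and in each VSM was first and Pc second. Lmod1 encodes a leiomodin that nucleates actin filaments, Cald1 caldesmon and Flna filamin A, an actin crosslinker. Against the other members, Acta2 had the highest r (0.968), whereas Myl6 (0.741) and Des (0.670) had the lowest.

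Over the ages, all 10 members differed among the 5 ages in VSM and all 10 in Pc (edgeR quasi-likelihood F test, adjusted p under 0.05), where 49% and 68% of all genes tested did. In VSM the members took 1.98% of all UMIs at E12.5 and 1.04% at E13.5, then 2.56 and 2.31% at E16.5, 3.49 and 3.09% at P0 and 3.32 and 3.65% at 4 weeks. In Pc their share stayed between 0.713 and 1.37%, and in EnC between 0.141 and 0.281%. Those at E12.5 and E13.5 rest on 59 and 90 VSM cells of 1 library each, against 303 to 618 VSM cells per library at later ages.

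The myosin heavy chain and desmin were the late members of the set in VSM. Myh11 in VSM was at 167.1 CPM at E12.5 and 129 CPM at E13.5, then at 1585 and 1352 CPM at E16.5, 1700 and 2266 CPM at P0 and 2373 and 2272 CPM at 4 weeks (adjusted p = 8.66e-06 over the 5 ages). Every library from E16.5 on stood above both earlier libraries. Des in VSM was at 8.31, then 15.4 CPM, then 473 and 518 CPM at E16.5, 802 and 826 CPM at P0 and 1659 and 1507 CPM at 4 weeks (adjusted p = 1.02e-06). Each age lay above the age before, on only 1 or 2 libraries per age, and the E12.5 value rests on 10 UMIs. The actin and tropomyosin genes were already present at E12.5, when Acta2 was at 5707 CPM in VSM and Tpm1 at 3724 CPM. The single E13.5 library was lower for both, with 2760 and 1792 CPM. From E16.5 on Tpm1 stayed within 3343 to 3735 CPM in VSM, and without the E13.5 library its adjusted p over ages was 0.333.

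The light chains, Tpm2 and Tagln were each higher in both P0 libraries of VSM than in the E12.5 and E13.5 libraries. Myl9 was at 1847 CPM at E12.5, 1123 CPM at E13.5, 3072 and 2758 CPM at E16.5, 3870 and 3833 CPM at P0 and 3694 and 3915 CPM at 4 weeks (adjusted p = 2.1e-05 over ages). Myl6 ran from 2488 and 1950 CPM in the early libraries to 4428 and 4806 CPM at 4 weeks (adjusted p = 0.000307). Tpm2 (adjusted p = 9.64e-05) was at 794 and 617 CPM in the early libraries and at 1741 to 2651 CPM in the later ones. Tagln was at 4077 CPM at E12.5, 1711 CPM at E13.5, 4433 and 3814 CPM at E16.5, 6221 and 5757 CPM at P0 and 6970 and 7808 CPM at 4 weeks (adjusted p = 4.56e-05). Cnn1 had another course in VSM, at 302.6 CPM at E12.5, 115.5 CPM at E13.5 and 99.7 and 71.2 CPM at E16.5 before its P0 level. The call of Cnn1 over the ages in VSM (adjusted p = 0.016) was lost without either 4-week library (0.0739 without replicate 1 and 0.0565 without replicate 2). The call of Acta2 over the ages in Pc was lost without replicate 1 at 4 weeks (adjusted p = 0.0715) and under DESeq2 (adjusted p = 0.0906). Tagln in Pc was highest at E12.5 (2504 CPM) and lay at 672 to 2236 CPM from E16.5 on, and Tpm1 in Pc was 3209 CPM at E12.5, 1960 CPM at E13.5 and 908 to 1597 CPM later.

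For 8 members, all but Actg2 and Des, the ratio of VSM to Pc was smaller at E12.5 than at E16.5. The ratio of VSM to Pc was 1.03 for Myl9, 1.06 for Myl6, 1.16 for Tpm1, 1.19 for Tpm2, 1.63 for Tagln and 1.99 for Acta2 at E12.5, in 1 library each. At E16.5 these ratios were 3.02, 1.82, 2.68, 2.47, 5.75 and 4.78. Myh11 was already 5.50 times higher in VSM at E12.5 and 8.37 times at E16.5. Cnn1 was 2.89 times higher at E12.5, 3.96 at E13.5, 8.54 at E16.5, 3.91 at P0 and 12.8 at 4 weeks. Actg2 had no such course, with ratios of 3.83, 0.738, 3.17, 1.63 and 1.01 in the same order of ages, and Des lay between 0.561 and 1.41. At E13.5 Tpm1 was at 0.914. The difference of the age course between VSM and Pc was not tested.

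**Figure D2:**
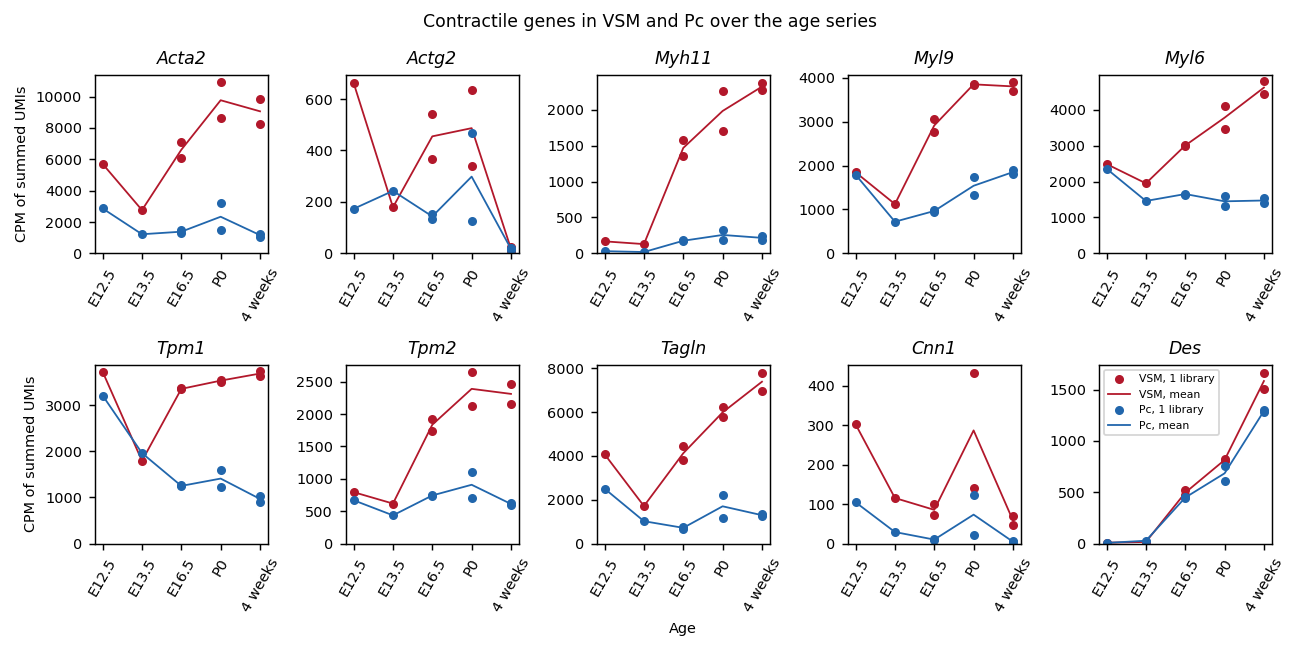
Level of each gene in VSM (red) and Pc (blue) over the 5 ages, in CPM of summed UMIs, with 1 point per library and lines through the means. Des rises at each age from E13.5 in both subtypes, Myh11 rises in VSM between E13.5 and E16.5, and Actg2 is lowest at 4 weeks.

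Between P0 and 4 weeks, 3 of the 10 members changed in VSM (22.6% of all 12575 genes tested did, 10.3% upward and 12.3% downward), and Actg2 and Cnn1 fell while Des rose. Actg2 in VSM was at 635 and 338 CPM at P0 and 8.50 and 26.3 CPM at 4 weeks, a fall by 4.83 ± 0.48 on the log2 scale (SE, n = 2 per age, adjusted p = 0.00052). Cnn1 was at 432 and 142 CPM, then 48.2 and 69.3 CPM (log2 change -2.35 ± 0.49, adjusted p = 0.0121). WT VSM of the newborn experiment, also P0 but fixed before capture, held 16.49, 61.8 and 32.1 CPM of Cnn1. These lay within or below the 4-week values. Actg2 there was at 89.5, 303 and 263 CPM, above its 4-week values. The difference between the experiments was not tested. Without either 4-week library the fall of Cnn1 missed the threshold, with adjusted p = 0.107 without replicate 1 and 0.0655 without replicate 2. Des rose by 0.90 ± 0.09 (adjusted p = 0.000611). The other 7 lay between -0.17 (Acta2, adjusted p = 0.384) and 0.24 (Tagln, adjusted p = 0.0991), and the median over the members was -0.04, against -0.02 for all genes.

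In Pc, 6 of the 10 changed (32.9% of 12556 genes, 15.2% upward and 17.7% downward), Acta2, Actg2, Tpm1, Tpm2 and Cnn1 downward and Des upward. Actg2 in Pc went from 470 and 127.02 CPM to 22.4 and 11.9 CPM (log2 change -4.23 ± 0.57, adjusted p = 0.000156) and Cnn1 from 123.8 and 22.9 CPM to 5.92 and 3.26 CPM (-4.02 ± 0.92, adjusted p = 0.00584). Acta2 went from 3202 and 1470 CPM to 1064 and 1264 CPM (-1.19 ± 0.25, adjusted p = 0.00365). The tropomyosins fell less, Tpm1 by 0.73 ± 0.12 (adjusted p = 0.000524) and Tpm2 by 0.75 ± 0.16 (adjusted p = 0.00314). Des rose by 0.73 ± 0.11 (adjusted p = 0.000343), from 609 and 760 CPM to 1304 and 1278 CPM. The median over the members in Pc was -0.65, against 1e-04 for all genes. Whether Pc and VSM differ in these changes was not tested. WT Pc of the newborn experiment at P0 held 2.004 to 7.07 CPM of Cnn1 and 364 to 607 CPM of Acta2. Tpm1 was at 955 to 1059 CPM there and Tpm2 at 313 to 514 CPM. Of the falling members only Actg2, at 53.1, 53.4 and 47.5 CPM, lay above its 4-week values in every such library. This difference between the experiments was not tested.

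The P0 libraries were uneven for these genes. In Pc, replicate 1 was higher than replicate 2 for 9 of the 10 members, all but Des, and in VSM it held 432 CPM of Cnn1 against 142 CPM. The 6 striated muscle markers summed to 190 CPM in VSM of that replicate and 17.5 CPM in the other, with Actc1, the cardiac actin, at 174.7 and 4.55 CPM. Fibroblast markers in Pc summed to 1035 and 727 CPM. Their part in the result was not tested. Without replicate 1 at P0 the count called in VSM was 5, and without replicate 2 it was also 5, while without replicate 1 at 4 weeks 3 members were called in Pc, where the calls of Acta2, Tpm2 and Cnn1 were lost. Cnn1 in Pc was also lost without replicate 2 at 4 weeks (adjusted p = 0.0799), and Acta2 in Pc under DESeq2 (log2 change -1.17, adjusted p = 0.0554). Without replicate 2 at P0 9 members were called in Pc. The size of the falls also rested on the P0 libraries. Without replicate 1 at P0 the log2 change was -1.31 for Cnn1 in VSM, and in Pc -2.47 for Cnn1, -3.04 for Actg2 and -0.54 for Acta2. Without replicate 2 at P0 it was -2.94 for Cnn1 in VSM, and in Pc -4.88 for Cnn1 and -4.90 for Actg2. Without replicate 2 at 4 weeks Actg2 in VSM was at -5.90.

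Other genes of the apparatus were read from 5 lists in the same comparison of P0 with 4 weeks. In VSM, 7 of 18 other contractile genes (5 up, 2 down), 6 of 10 calcium and cyclic GMP handling genes (all up), 5 of 9 regulators (1 up, 4 down), 5 of 8 nonmuscle paralogs (1 up, 4 down) and 4 of the 11 striated muscle genes tested (all down) were called, where 22.6% of all genes were. Pln, which encodes the calcium pump inhibitor phospholamban, rose by 4.36 ± 0.17 on the log2 scale in VSM (adjusted p = 1.34e-05), from a mean of 7.24 to 155.8 CPM. Myh10, a nonmuscle myosin heavy chain, fell by 3.45 ± 0.74 (adjusted p = 0.0139). In Pc, 11 of 18 (3 up, 8 down), 5 of 9 (all up), 7 of 9 (1 up, 6 down), 7 of 8 (1 up, 6 down) and 2 of 8 (both down) were called in the same order of lists, where 32.9% of all genes were, a share that the striated genes did not exceed. Synpo2, an actin-bundling protein of the Z-disc and dense bodies, rose by 2.45 ± 0.09 in Pc (adjusted p = 7.43e-09), Casq2, a calcium store protein, by 2.91 ± 0.41 (adjusted p = 0.000205), and Klf4, a repressor of contractile genes, fell by 2.69 ± 0.16 (adjusted p = 1.95e-07).

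Outside the mural cells the members also varied with age, and in 17 further NETS subtypes 80.1% of the tests of a member over the ages were called. All 10 members were called in the fibroblasts CapFb1a (68.9% of all genes), CapFb2a (44.5%), MedFb1a (63.6%) and MedFb2a (65.9%). Of 10 tested, 9 were called in CapFb2b (64.0%), CapFb4 (53.1%), MedFb1b (64.7%) and proliferating cells (Pr, 55.9%), and 8 in CapFb1b (68.2%). In CapFb1c 6 of 9 (49.8%), in CapFb3 4 of 8 (40.4%), in MedFb2b 7 of 8 (29.8%) and in Mes 6 of 7 (33.9%) were called. The endothelium had 5 of 9 in EnA (32.3%), 7 of 9 in EnC (56.3%) and 4 of 9 in venous and lymphatic cells (EnVL, 40.5%), and neural crest-derived cells (NCC) 2 of 7 (9.68%), Tagln and Des. Des was called in each of these 17 subtypes.

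In the newborn mice, none of the 10 members was called between Tbx1+/-Crkl+/- and WT in VSM (edgeR, 0.0308% of 6489 genes called) and none of the 9 tested in Pc (0.08% of 10003 genes). DESeq2 also called 0 in both. At an unadjusted p under 0.05 there were 3 in VSM (Acta2, Myl9 and Cnn1) and 3 in Pc (Acta2, Actg2 and Tagln), against 4.99% and 5.53% of all genes. All 10 members had a log2 difference below 0 in VSM and 8 of 9 in Pc, against 48.3% and 51.4% of all genes, with a median of -0.45 in VSM (all genes 0.01) and -0.28 in Pc (all genes -0.01). The members are measured in the same libraries, so these signs are not independent of each other. From the same mice the study reported lower contractile transcripts in VSM, naming Myl6 and Tpm2, in an enrichment analysis of differentially expressed genes. Both are members, and neither was called here with libraries as the replicates.

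Acta2 in VSM was at 3092, 3834 and 2012 CPM in the 3 Tbx1+/-Crkl+/- libraries and 3068, 5796 and 5545 CPM in the 3 WT libraries (log2 difference -0.68 ± 0.27, adjusted p = 0.828). WT replicates 2 and 3 stood above all Tbx1+/-Crkl+/- libraries, and WT replicate 1 lay among them. The same order was seen for Myl9, with 1438, 1603 and 863 CPM against 1105, 2255 and 2369 CPM (-0.56 ± 0.27, adjusted p = 0.983). Tagln was at 1223, 2872 and 1450 CPM against 1687, 3475 and 3058 CPM (-0.55 ± 0.28, adjusted p = 0.983). Cnn1 was at 0, 29.4 and 16.7 CPM against 16.49, 61.8 and 32.1 CPM (-0.96 ± 0.46, adjusted p = 0.966). With 1 library left out, the difference in VSM ran from -0.93 to -0.48 for Acta2, -0.84 to -0.34 for Myl9, -1.03 to -0.33 for Tagln, -1.62 to -0.50 for Cnn1, -0.76 to -0.33 for Tpm2 and -0.80 to -0.19 for Actg2.

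The other members had smaller log2 differences in VSM. Tpm2 was at 791, 1346 and 832 CPM in Tbx1+/-Crkl+/- against 860, 1666 and 1604 CPM in WT (-0.46 ± 0.26, adjusted p = 0.997). Myl6 was at 1876, 1813 and 1300 CPM against 1371, 2191 and 2615 CPM (-0.31 ± 0.26, adjusted p = 0.997). For both, as for Acta2, WT replicates 2 and 3 were the highest and WT replicate 1 lay among the Tbx1+/-Crkl+/- libraries. Actg2 was at 183, 206 and 105.1 CPM against 89.5, 303 and 263 CPM (-0.45 ± 0.29, adjusted p = 0.997), with WT replicate 1 the lowest. Des was at 373, 413 and 275 CPM against 452, 394 and 443 CPM (-0.28 ± 0.25, adjusted p = 0.997). Myh11 was at 1131, 1099 and 1223 CPM against 1315, 1449 and 1055 CPM (-0.13 ± 0.24, adjusted p = 0.997). Tpm1 was at 2452, 2087 and 3082 CPM against 2752, 3289 and 3006 CPM (-0.23 ± 0.25, adjusted p = 0.997). The ranges of the genotypes overlapped for all 10 members in VSM, where 8.37% of genes with at least 10 UMIs in 3 libraries did not overlap. In Pc the ranges did not overlap for Des alone, 1 of 9 members, against 9.54% of genes. Des in Pc was at 439, 350 and 314 CPM in Tbx1+/-Crkl+/- and 473, 460 and 480 CPM in WT (-0.40 ± 0.23, adjusted p = 0.970).

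Acta2 in Pc was at 250, 381 and 429 CPM against 364, 563 and 607 CPM (-0.56 ± 0.25, adjusted p = 0.858), and Tagln at 174, 300 and 372 CPM against 297, 477 and 535 CPM (-0.66 ± 0.27, adjusted p = 0.712). Actg2 in Pc was at 8.20, 24.7 and 51.7 CPM against 53.1, 53.4 and 47.5 CPM (-0.77 ± 0.31, adjusted p = 0.7099). Without Tbx1+/-Crkl+/- replicate 3, the one that overlaps WT, Actg2 was called in Pc (log2 difference -1.39, adjusted p = 0.0472). Of the remaining members tested in Pc, Myh11 was at -0.28 ± 0.24 on the log2 scale (adjusted p = 0.971), Tpm2 at -0.26 ± 0.24 (adjusted p = 0.975), Myl9 at -0.22 ± 0.26 (adjusted p = 0.975), Myl6 at -0.15 ± 0.26 (adjusted p = 0.983) and Tpm1 at 0.07 ± 0.26 (adjusted p = 0.991). For Myl6, Myl9 and Tpm1 the sign in Pc turned when 1 library was left out. Cnn1, with 1 to 13 UMIs per library in Pc, was not tested there.

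Depth and the markers of other cells differed between libraries. The median UMIs per VSM cell were 3256, 2662 and 2555.5 in the Tbx1+/-Crkl+/- libraries and 2890.5, 3530 and 5157 in WT, so WT replicates 2 and 3, which were highest for Acta2, Myl9, Tagln, Tpm2 and Myl6, were also the deepest. Summed over 6 thymic epithelial markers, VSM of Tbx1+/-Crkl+/- held 301 to 438 CPM against 150.8 to 224 CPM in WT, and Pc 326 to 543 CPM against 212 to 283 CPM. The 7 VSM genes outside the list summed to 750 to 1035 CPM in VSM of Tbx1+/-Crkl+/- and 1105 to 1212 CPM in WT. Their part in the result was not tested. After thinning to 2000 UMIs, an Acta2 UMI was found in 71.6% of 250 Tbx1+/-Crkl+/- VSM cells and 75.6% of 483 WT VSM cells (71.6% of 328 and 78.3% of 538 before thinning, at median depths of 2672.5 and 3939 UMIs). Perinatal cortical epithelial cells (PcTEC) had 8.78% and 8.98% after thinning and 12.48% and 16.9% before, at median depths of 2752.5 and 4659 UMIs.

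No member was called for a difference of the genotype effect between VSM and Pc (0 of 10, 0.0105% of genes, edgeR interaction of genotype and subtype), and DESeq2 called 0. An unadjusted p under 0.05 was found for 2 (4.89% of all genes), Myl9 (-0.39 ± 0.14, adjusted p = 0.970) and Tpm1 (-0.33 ± 0.12, adjusted p = 0.970). In 18 other subtypes, no test of a member between the genotypes was called by edgeR, with 10, or 8.85% of the member tests, at an unadjusted p under 0.05, against 6.92% of the tests of all genes there. The share of all genes called there was 0.0469% in CapFb1b, 0.0317% in CapFb2b, 0.118% in CapFb4, 0.0148% in EnC, 0.0555% in MedFb1a, 0.0548% in MedFb2a, 0.148% in MmTEC, 0.0411% in Pr, 0.162% in PrTEC, 0.276% in Thy and 0 in the remaining 8. DESeq2 was not run on these 18. Of the other contractile, calcium handling, regulator, nonmuscle and striated genes, 0 were called in VSM or Pc, with 2 of 18, 1 of 8, 0 of 9, 0 of 8 and 0 of 1 at an unadjusted p under 0.05 in VSM and 0 in each of the lists in Pc.

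**Figure D3:**
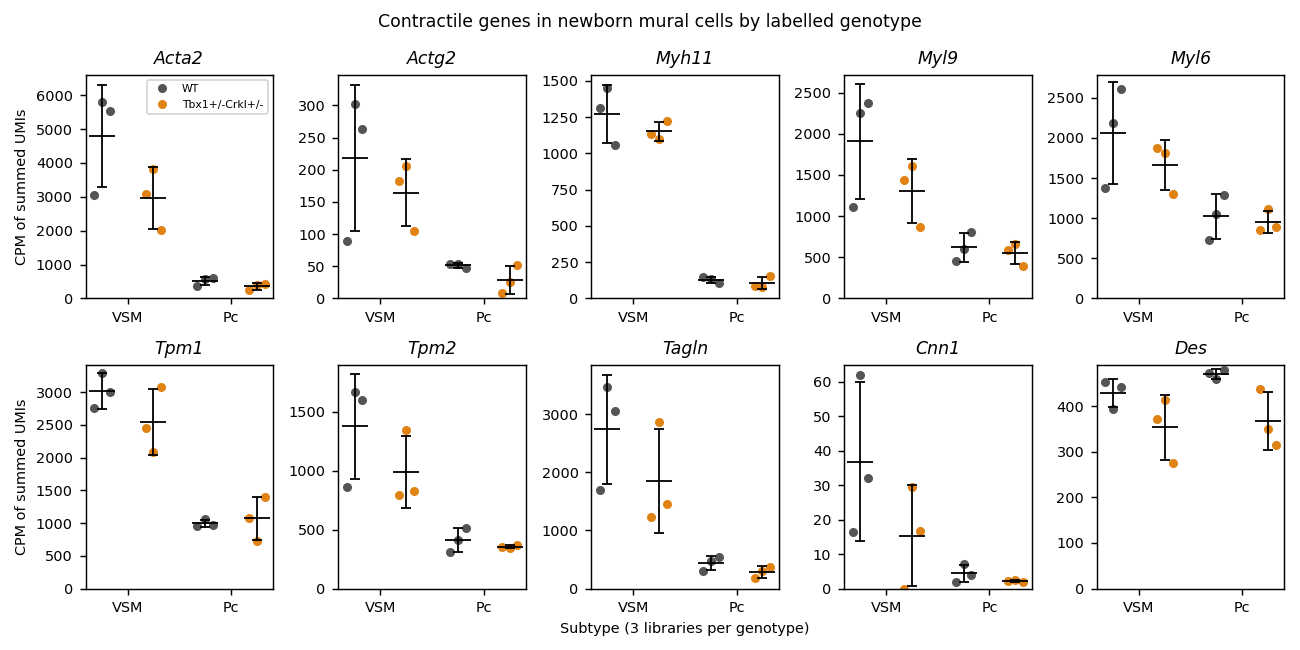
Level of each gene in VSM and Pc of newborn mice, in CPM of summed UMIs, with 1 point per library, and the mean with its SD over 3 libraries per genotype. The points of both genotypes overlap in every panel but Des in Pc, where the Tbx1+/-Crkl+/- points (314 to 439 CPM) lie below the WT points (460 to 480 CPM).

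In the WT newborn thymus 2 members were highest in a rare epithelial subtype. Post-Aire medullary epithelial cells (PAmTEC) had the highest mean of Tpm2 and Des among 26 subtypes in WT, on 11, 13 and 22 cells per library. For Tpm2 this rank rests on replicate 3, since VSM was higher in the other two WT libraries (860 and 1666 CPM). The rank of Des rests on the same library, since without it the fibroblasts MedFb2a, at 532 to 627 CPM in WT, have the higher mean. Tpm2 was at 532, 1428 and 2662 CPM in these WT libraries and Des at 200, 663 and 1162 CPM. Summed over the 15 striated muscle genes, the same cells held 3791, 13312 and 19771 CPM, and mature medullary epithelial cells (MmTEC) held 195 to 352 CPM over all 6 libraries. In Tbx1+/-Crkl+/- PAmTEC Tpm2 was at 396 and 1000 CPM and Des at 144.2 and 549 CPM in the 2 libraries with at least 10 of these cells. There VSM was first for Tpm2 (mean 989 CPM, PAmTEC second) and MedFb2a for Des (mean 414 CPM, PAmTEC at rank 4). Both genes are also used by striated muscle.

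In the bulk populations, Ly51+gp38- cells exceeded the mean of CD31+, gp38+CD26+ and gp38+CD26- cells for all 10 members at 4 weeks (14.4% of 15704 genes were called higher) and for 9 at P0 (10.2%). The population was checked with the 7 pericyte markers, which summed to 32312 to 43418 CPM at P0 and 86252 to 109720 CPM at 4 weeks, against at most 4060 CPM in the other 3. Pericytes and VSM are not separated in this gate, and in bulk RNA fewer cells of a type and less RNA per cell cannot be told apart. At 4 weeks the log2 difference was 6.68 ± 0.56 for Acta2 (adjusted p = 9.63e-13), 5.26 ± 0.38 for Myl9 (adjusted p = 2.14e-14), 3.0 ± 0.10 for Tpm1 (adjusted p = 1e-25) and 1.36 ± 0.19 for Myl6 (adjusted p = 3.22e-07). The other 6 members lay between 3.56 ± 0.45 for Des and 7.99 ± 1.14 for Actg2. Myl6 was the member not called at P0 (0.32 ± 0.20, adjusted p = 0.349), with 123.9 to 609 CPM in CD31+ cells and 143.7 to 253 CPM in Ly51+gp38- cells. The median over the members was 4.95 at 4 weeks and 4.83 at P0, against 0.06 and 0.08 for all genes. Actg2 in CD31+ cells at 4 weeks and Myh11 in gp38+CD26+ cells at P0 had no read, so their fitted differences rest on a prior count. With a floor of 3 counts per population they were at least 7.54 and 10.22 on the log2 scale, which left both medians as they were.

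Desmin was shared with fibroblasts in bulk as in single cells. At 4 weeks Des was at 522 to 767 CPM (median 645) in Ly51+gp38- cells and 351 to 477 CPM (median 422) in gp38+CD26- cells, which did not overlap, against 12.6 to 76.8 CPM in gp38+CD26+ cells. Acta2 at 4 weeks was at 3736 to 5195 CPM (median 4484) in Ly51+gp38- cells and 56.9 to 255 CPM (median 179.2) in gp38+CD26- cells.

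**Figure D4:**
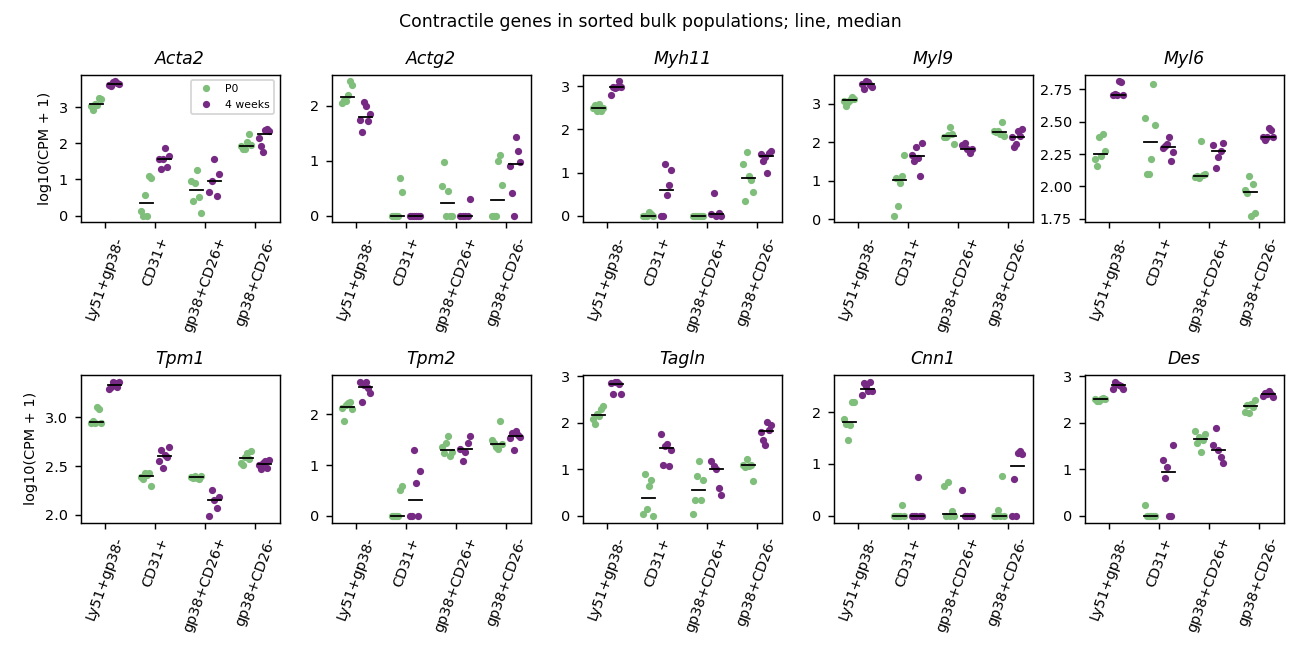
Level of each gene in the 4 bulk populations at P0 (green) and 4 weeks (purple), as log10(CPM + 1), with 1 point per library and a line at the median. The axes do not start at 0. Ly51+gp38- libraries lie above the other populations for most genes, and above their own P0 libraries at 4 weeks for 8 of the 10.

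From P0 to 4 weeks the median level in Ly51+gp38- cells was higher for 9 of the members and lower for Actg2. The ranges of the 6 libraries per age did not overlap for 8 of 10 members, all higher at 4 weeks, against 4.1% of genes that lay wholly higher, among those with at least 10 counts in 6 libraries. Acta2 went from 830 to 1837 CPM (median 1206) at P0 to 3736 to 5195 CPM (median 4484). Myh11 went from 263 to 392 CPM (median 313) to 619 to 1311 CPM (median 949), and Tpm1 from 871 to 1280 CPM (median 903) to 1961 to 2332 CPM (median 2163). These 3 show the common course of the levels in bulk. Of them only Tpm1 was called in the fit over all 47 libraries (given next). Myl9 went from 895 to 1464 CPM (median 1226) to 2482 to 3834 CPM (median 3166), and Tagln from 91.3 to 230 CPM (median 142) to 403 to 763 CPM (median 691). Cnn1 went from 27.5 to 156.4 CPM (median 64.7) to 216 to 385 CPM (median 284). Actg2, the enteric type actin, ran the other way, from 111 to 280 CPM (median 142) to 32.2 to 117 CPM (median 63.0), and its ages overlapped by 1 library on each side. Tpm2 also overlapped, at 73.9 to 174 CPM and 171.6 to 444 CPM.

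In the fit over all 47 libraries, which share 1 estimate of the spread, 4 members were called between the ages in Ly51+gp38- cells (10.4% of genes), all higher: Tpm1 (log2 change 1.25 ± 0.14, adjusted p = 9.99e-09), Myl6 (1.68 ± 0.25, adjusted p = 7.37e-06), Tagln (2.14 ± 0.66, adjusted p = 0.0294) and Myl9 (1.53 ± 0.50, adjusted p = 0.0399). Acta2 (1.93 ± 0.69, adjusted p = 0.0654), Cnn1 (1.91 ± 1.19, adjusted p = 0.355) and Actg2 (-1.14 ± 1.20, adjusted p = 0.672) were not called there. Neither were Myh11, Tpm2 and Des. A fit on the 12 Ly51+gp38- libraries alone, chosen after seeing the data, called all 10 (11.9% of 11949 genes), 9 higher and Actg2 lower, with Acta2 at 1.91 ± 0.18 (adjusted p = 1.28e-05), Cnn1 at 1.90 ± 0.38 (adjusted p = 0.00428) and Actg2 at -1.16 ± 0.32 (adjusted p = 0.0304). The median over the members was 1.60 in the first fit and 1.59 in the second, against -0.03 and -0.05 for all genes. The sample titles begin with TXCK or DFCK, of unstated meaning, with 3 libraries of each per population and age. The log2 change kept its direction for all 10 members within either set, for example 2.45 and 1.53 for Acta2 and -0.45 and -1.63 for Actg2, with 2 members called in the TXCK and 1 in the DFCK libraries.

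Marker sums of several cell types differed between the ages in this population. Those of fibroblasts overlapped, at 761 to 2638 CPM (median 1404) at P0 and 392 to 3550 CPM (median 1046) at 4 weeks. The 7 VSM genes outside the list summed to 421 to 702 CPM at P0 and 1765 to 2369 CPM at 4 weeks, and the pericyte markers rose as given before. Thymocyte and other blood cell markers were at 0 to 25.2 CPM, then 78.6 to 317 CPM, erythroid markers at 0.0631 to 1.76 CPM, then 3.47 to 536 CPM (median 219), and thymic epithelial markers at 0.531 to 60.1 CPM, then 44.9 to 444 CPM. Their part in the result was not tested. Of the 18 other contractile genes, 7 were called higher, among them Mustn1 (3.22 ± 0.42, adjusted p = 6.45e-07), together with 2 of 10 calcium handling genes, 1 of 7 regulators, 3 of 8 nonmuscle paralogs (all lower) and 0 of 9 striated genes, where 10.4% of all genes were called. Klf4 rose in bulk Ly51+gp38- cells (2.37 ± 0.40, adjusted p = 5.98e-05), where it fell in Pc of the single-cell data, and Myh10 fell in both (-3.26 ± 0.63, adjusted p = 0.000438 in bulk).

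The bulk and single-cell changes can be set side by side for Actg2, Des and Cnn1, which were called in both mural subtypes, and for Acta2, Tpm1 and Tpm2, called in Pc and not in VSM. Actg2 fell in VSM and in Pc, and was at -1.14 on the log2 scale in Ly51+gp38- cells, a change called in the fit on those libraries alone and not in the fit over all 47. Des rose in VSM and Pc, by 0.90 and 0.73 on the log2 scale, and was at 1.15 in bulk, called likewise in the fit on those libraries alone. Cnn1 fell in VSM (-2.35) and Pc (-4.02) and was higher at 4 weeks in every Ly51+gp38- library. Acta2 was -0.17 in VSM and -1.19 in Pc and 1.93 in bulk. Tpm1 was -3e-04 in VSM, -0.73 in Pc and 1.25 in bulk, where both fits called it. Tpm2 was -0.11 in VSM, -0.75 in Pc and 1.44 in bulk, called in the fit on those libraries alone. The 2 assays differ in the cells sorted, in kit and in animals, and the difference between them was not tested.

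**Figure D5:**
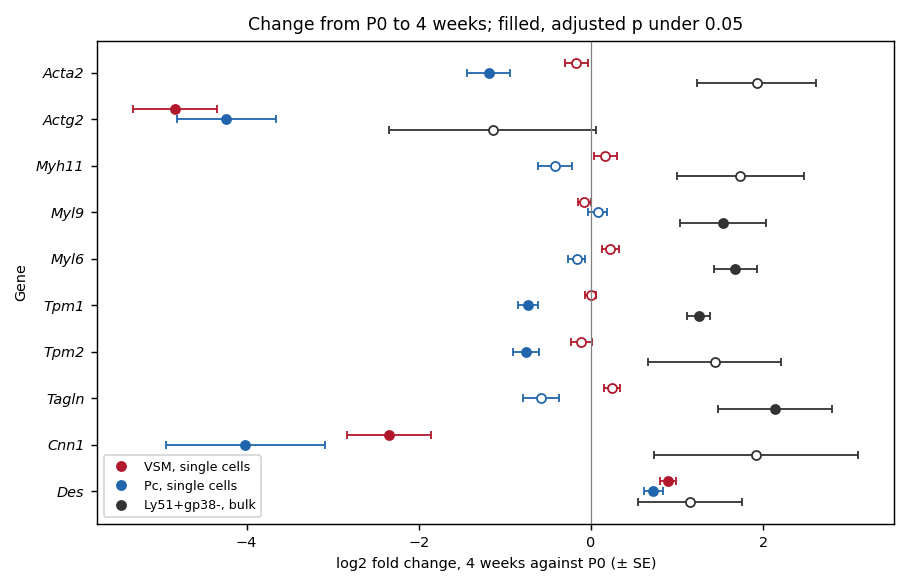
Log2 change from P0 to 4 weeks with its SE for each gene in VSM and Pc (single cells, n = 2 per age) and in bulk Ly51+gp38- cells (n = 6 per age, fit over all 47 libraries). Filled points have an adjusted p under 0.05. Des lies above 0 and Actg2 below 0 in all 3, and Cnn1 lies below 0 in single cells and above 0 in bulk.

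The age change differed from the mean age change of the other 3 populations for Tpm1 (difference 1.21 ± 0.16 on the log2 scale, adjusted p = 1.8e-06) and Myl6 (1.04 ± 0.28, adjusted p = 0.0344), 2 of 10 members against 2.8% of genes. Tpm1 rose in Ly51+gp38- and CD31+ cells (0.84 ± 0.14, adjusted p = 2.19e-05) and fell in gp38+CD26+ cells. In CD31+ cells 6 members were called, all higher (10.4% of genes either way), namely Acta2, Myh11, Myl9, Tpm1, Tagln and Des. Tpm1 was at 199 to 268 CPM at P0 and 303 to 493 CPM at 4 weeks in CD31+ cells, and the other 5 were lower, with Acta2 at 0 to 11.3 CPM and 18.9 to 70.9 CPM. The 7 pericyte markers in those libraries summed to 152 to 339 CPM at P0 and 791 to 2090 CPM at 4 weeks, and their part in the result was not tested. In gp38+CD26- cells Myl6 and Tagln rose (13.9% of genes called), and in gp38+CD26+ cells Tpm1 alone was called (9.9%), downward. From P0 to 4 weeks in gp38+CD26- cells, the VSM genes outside the list went from 6.25 to 27.0 CPM to 36.0 to 56.9 CPM. Pericyte markers there went from 3087 to 4060 CPM to 1794 to 3483 CPM, and erythroid markers from 0 to 0.610 CPM to 27.4 to 3359 CPM. In gp38+CD26+ cells mesothelial markers went from 0 to 386 CPM to 504 to 5634 CPM, and pericyte markers from 874 to 1383 CPM to 441 to 687 CPM. Their part was not tested.

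On GRCm38, the members lie at 10 separate places, among them Acta2 at chr19:34241090-34255590 (- strand), Cnn1 at chr9:22099216-22109630 (+ strand), Actg2 at chr6:83512905-83536265 (- strand) and Des at chr1:75360329-75368579 (+ strand). Tagln, at chr9:45929619-45936058 (- strand), shares 62.4% of its exonic bases with the antisense gene Gm48529 and 5.43% with Pcsk7, and Des shares 5.86% with Gm15179. Whether strand was used in counting is not given in the sources used here, so reads of such pairs may not be told apart. Of the runs of 50 bases in Myl6 transcripts, 8.38% occur in another gene, mostly the pseudogene Gm5526, so its values are less certain, against at most 0.340% for the other 9 members.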

How the data were processed

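Single-cell files were deposited by the authors as whole UMI counts per gene and cell, made with Cell Ranger 3.1.0 and not normalized, with a subtype label per cell. The authors kept cells with more than 1000 genes and removed doublets and contaminating clusters, and newborn cells go down to 876 genes. Bulk files were deposited by the authors as whole read counts per Ensembl gene. The submitters' processing notes name STAR 2.5.3a, HTSeq and the builds mm10 and GRCh38. Entries of no gene held 7.81 to 29.4% of bulk counts and were left out, as was 1 library with fewer than 1000000 gene counts. Of 39179 gene IDs 37607 matched a symbol, and the others held 0.412% of counts.

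UMIs were summed per library and subtype where a library had at least 10 cells of it. CPM are these sums, or bulk counts, per 1000000 of the same library and subtype. Tests used edgeR 4.0.16 (R 4.3.3, limma 3.58.1) with filterByExpr, TMM and quasi-likelihood F tests on the summed counts, 2-sided, with Benjamini-Hochberg adjustment over all genes tested. DESeq2 1.42.0 was an alternative. Levels used Python 3.11.15, numpy 2.4.6, scipy 1.17.1 and pandas 2.3.3. The code was tested on simulated data. Other settings were RLE size factors, no filter on low counts, at least 20 cells, a replicate block, newborn cells over 1000 genes, libraries left out, the TXCK or DFCK libraries alone or the prefix as a term, all bulk libraries kept and a test against a 2-fold change. The rule named all 10 members in every comparison, with those not described singly given by counts and ranges, and from 5 further lists those with the largest called changes. The members and lists were chosen with earlier results of these data known. Replicates are separate libraries, and where nothing says that they came from separate animals, p-values measure only the spread between libraries. Bulk sample numbers recur at a constant step across the populations of an age. Whether these populations share mice is not stated, and no such pairing was fitted.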

Additional observations from a re-analysis of the deposited data

Results flagged for a closer look

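In 15 of 78 pairs of a gene and a bulk group, 1 library stood apart from the others of its group, where chance gives about 1 in 20 for values well above 0, and where most libraries of a group are at 0 a few reads in 1 library suffice. In gp38+CD26- cells at P0, replicate 5 was highest for 4 members. It held 175.1 CPM of Acta2 (others 66.8 to 105.0), 334.2 CPM of Myl9 (140.9 to 190.3), 71.97 CPM of Tpm2 (20.1 to 29.8) and 4.92 CPM of Cnn1 (0 to 0.298). In gp38+CD26+ cells at P0, replicate 4 held 224.5 CPM of Myl6 (114.99 to 124.05) and replicate 2 held 8.49 CPM of Actg2 (0 to 2.394). In CD31+ cells, replicate 6 at P0 held 45.32 CPM of Myl9 (0.2464 to 11.96) and replicate 3 at 4 weeks 18.93 CPM of Tpm2 (0 to 6.76).

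The other 7 lie at low levels, at most 4.719 CPM. They were Actg2 at 0.9744, Cnn1 at 2.086 and Myh11 at 2.418 CPM in 1 library each of the 5 gp38+CD26+ libraries at 4 weeks. In CD31+ cells they were Cnn1 at 4.719 CPM (59 reads) at 4 weeks, and Cnn1 at 0.6222, Des at 0.7392 and Myh11 at 0.2132 CPM at P0.

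The age change differed between populations for 2 members in bulk, Tpm1 (log2 difference 1.21) and Myl6 (1.0423), by the interaction in edgeR.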

How the results depend on the processing

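Counts of members called between genotypes stayed at 0 in VSM under every alternative, and in Pc under all but 1, without Tbx1+/-Crkl+/- replicate 3 (range 0 to 1). Leaving out 1 library gave 0 to 0 members for the difference of the genotype effect between VSM and Pc, 9 to 10 over the ages in both subtypes, and 2 to 5 in VSM and 3 to 9 in Pc between P0 and 4 weeks. In the bulk age comparison of Ly51+gp38- cells, where 4 were called, the TXCK libraries alone gave 2, the DFCK libraries alone 1, a test against a 2-fold change 1 and the Ly51+gp38- libraries alone, added after seeing the data, 10. For the difference from the other populations these were 1, 1 and 0 against 2. The cause was not tested.

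No sign turned in a called member. Where 1 library was left out, the log2 difference between genotypes in Pc ran from -0.1642 to 0.2838 for Tpm1, -0.4028 to 0.0758 for Myl9 and -0.3402 to 0.1124 for Myl6. The difference in VSM minus that in Pc ran from -0.4171 to 0.1913 for Acta2, -0.3931 to 1.0682 for Actg2, -0.091 to 0.443 for Myh11, -0.3693 to 0.4527 for Tagln, -0.4888 to 0.3131 for Cnn1 (-0.021 under DESeq2) and -0.0684 to 0.1755 for Des. From P0 to 4 weeks in VSM it ran from -0.3462 to 0.0239 for Acta2, -0.0134 to 0.3708 for Myh11, -0.2756 to 0.0714 for Tpm2 and -0.025 to 0.0271 for Tpm1, which was 0.0193 under RLE, 0.0194 under DESeq2 and 0.0011 with E16.5, P0 and 4 weeks alone, and in Pc from -0.0969 to 0.2687 for Myl9. With the TXCK libraries alone the bulk difference between populations turned for Acta2 (-0.6288), Actg2 (-2.9566), Tpm2 (-1.4142) and Tagln (0.1416). The cause was not tested.

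With the replicate number as a block, 0 members were called between genotypes in VSM and 0 in Pc, 10 over the ages in both, 3 in VSM between P0 and 4 weeks and 8 in Pc (6 without the block). Deviations of same-numbered libraries had correlations of -0.33 to -0.03 in newborn VSM, -0.26 to 0.16 in newborn Pc and -0.21 to 0.04 over the ages. Differently numbered libraries across the newborn genotypes ran from -0.24 to 0.29 in VSM and from -0.33 to 0.41 in Pc. With so few libraries per group, these values cannot show whether libraries shared a litter or a batch. Without a filter on low counts 8 were called in Pc.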

Other observations

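Cnn1 and Myh11 were also found in sorted epithelium in bulk. The mean of Myh11 ran from 44.2 CPM in mTEClo cells at 4 weeks to 60.7 CPM in cortical epithelial cells (cTEC) at P0. In the fibroblast populations it ran from 0 CPM in gp38+CD26+ cells at P0 to 21.8 CPM in gp38+CD26- cells at 4 weeks. In mTEChi cells at 4 weeks Cnn1 was at 29.2 to 83.1 CPM (mean 56.9 ± 20.4, SD, n = 6), where Myl9 was at 1.93 ± 1.999 CPM and Tagln at 3.32 ± 2.04 CPM. In mTEClo cells the order was the other way, with Cnn1 at 8.27 ± 13.3 CPM, Myl9 at 97.99 ± 58.03 CPM and Tagln at 92.3 ± 34.5 CPM. Acta2, Tpm1, Tpm2 and Myl6 also had higher medians in mTEClo (175.02, 250.4, 170.5 and 174.2 CPM) than in mTEChi cells (51.8, 135.6, 54.7 and 89.8 CPM). In mTEC at P0 Cnn1 was at 46.7 ± 39.9 CPM. The epithelial populations were not tested.

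In VSM at E12.5 the 6 striated muscle markers summed to 250 CPM, of which Actc1 gave 219 CPM, and at E13.5 Actc1 had no UMI in the single library.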
